A study of Mus musculus with 6 samples.

Results

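The genes that govern entry into the DNA synthesis phase of the cell cycle were examined in colorectal tissue of colitis mice receiving berberine (BBR), a plant alkaloid, or sulfasalazine (SASP), an established aminosalicylate drug for colitis. The 10 genes were selected by name from the 18268 listed genes. They were the D cyclins Ccnd1, Ccnd2 and Ccnd3, the E cyclins Ccne1 and Ccne2, the E2F factors E2f1 and E2f8, and the CIP/KIP inhibitors Cdkn1a, Cdkn1b and Cdkn1c. The 6 mice were adult C57BL/6 males, for which the labels name no engineered allele, and all had been given dextran sulfate sodium (DSS), which damages the colonic epithelium, for 7 days. They had also received a drug by gavage for 6 days, BBR in 3 mice and SASP in the other 3. The study's head-to-head experiment used a higher dose of SASP than of BBR, and the labels of the sequenced mice give no dose. Mice without colitis, or with colitis and no drug, were not analysed here. Each difference below is thus between the drugs, with no direction relative to colitis alone. The samples are whole tissue, in which fewer cells of a type and less RNA per cell cannot be told apart.

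D cyclins are made when growth signals reach a cell, and they activate the kinases Cdk4 and Cdk6, which begin to phosphorylate the retinoblastoma protein. E2F factors are thereby released and switch on genes of DNA synthesis, the E cyclins among them, and E cyclins with Cdk2 complete the step. The proteins p21, p27 and p57, encoded by Cdkn1a, Cdkn1b and Cdkn1c, bind and restrain these kinases. In the colon the cycle runs in stem and progenitor cells of the crypt base and stops as epithelial cells differentiate.

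The libraries were estimated at 16400000 to 18200000 reads each. BBR mouse 3 stood apart within its group, with a correlation of log2 values across genes of 0.953 and 0.949 to the other BBR mice, which had 0.987 between them, and SASP mice had 0.982 to 0.989. Among the 10 genes it held the lowest BBR value of 7 and the highest of 2, Ccnd2 and Ccnd3. BBR mouse 2 held the highest BBR value of the other 8 genes. Among SASP mice, mouse 1 was lowest in 6 genes and highest in 3.

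Under BBR, Ccnd1, Ccne1, Ccne2 and E2f8 were lower than under SASP by 3.03 to 4.39 times in mean FPKM (fragments per kilobase of transcript scaled to mapped reads). The 3 CIP/KIP inhibitors and Ccnd3 did not pass the test, and the ratios of their means lay between 0.766 and 1.11 (BBR over SASP). All 10 genes passed the filter of at least 1 FPKM in at least 3 samples, although for Ccne1 and E2f1 the SASP mice alone supplied 3 of the 4 samples at that level. Of the 10 genes, 4 were lower and 0 higher at an adjusted p under 0.05 in limma, where 5.04% of the 12072 tested genes were called lower and 3.82% higher. The median log2 fold change of the 10 genes was -0.84, beside 0.10 for all tested genes. All 3 BBR values lay below all 3 SASP values in 5 of the 10 genes, which held for 16.6% of tested genes. At an unadjusted p of at most 0.05, 5 of the 10 genes passed, where 31.8% of tested genes did.

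The count of 4 depended on single mice and on settings of the fit, although it stayed at 4 with no variance trend. It was 5 without BBR mouse 3, and fell to 2 without BBR mouse 1, 2 without SASP mouse 1 and 1 without SASP mouse 3. The calls among all tested genes moved the same way from 1069, to 4018 without BBR mouse 3. They fell to 131 without BBR mouse 1, 59 without SASP mouse 1 and 51 without SASP mouse 3. Array quality weights gave 8 calls, where 7126 of the 12072 tested genes were called. They gave the largest weights to BBR mouse 1 (5.32) and SASP mouse 3 (4.85). A smooth muscle score as covariate left 1 call, Ccnd2, which is no call of the fit without it. That covariate left 19 calls among all tested genes.

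**Figure D1:**
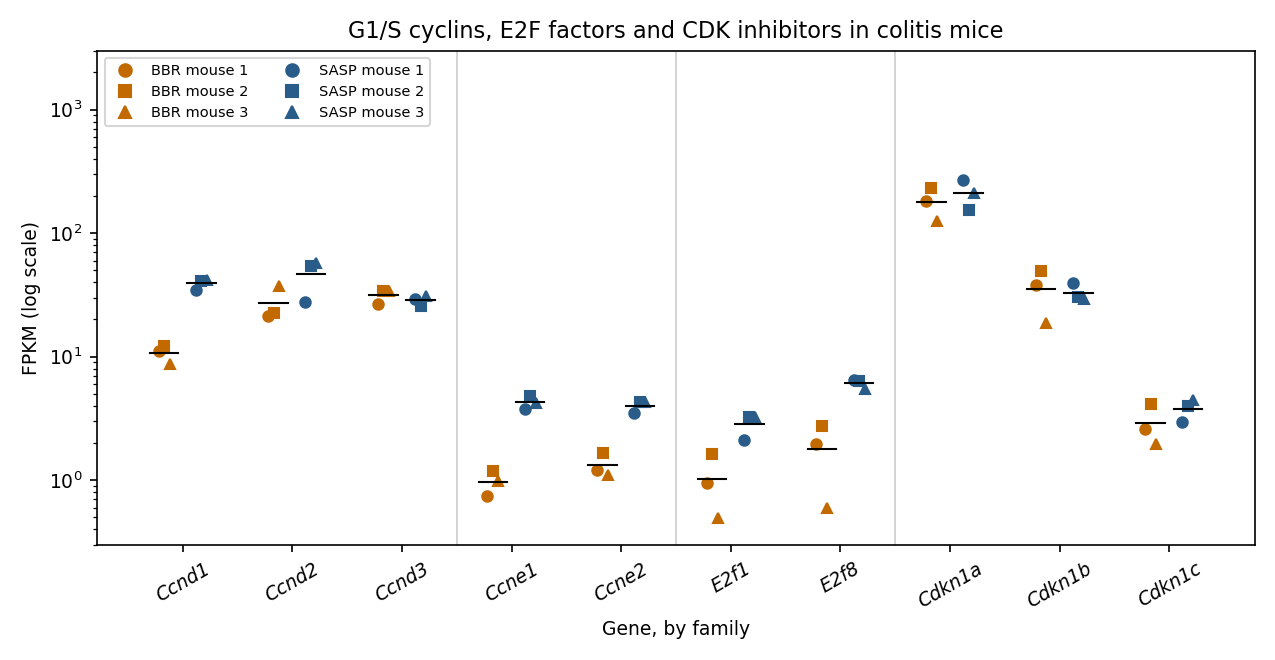
FPKM of each gene (log scale) in the 3 BBR mice (orange) and the 3 SASP mice (blue), with the mouse number as the symbol and black lines for group means. The groups are apart for Ccnd1, both E cyclins and both E2F genes, and they overlap for Ccnd2, Ccnd3 and the 3 inhibitors.

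Before the values are given in turn, the sequence ahead of the start of 3 genes is shown, for the 2 called genes with an entry and for an inhibitor that was not called. RefSeq windows on GRCm38.p6 were found for 6 of the 10 genes, in 8 windows of 250 bases each, and not for Ccnd1, Ccnd2, Ccne2 and Cdkn1c. The files were aligned to another build (mm9 in the submitters' processing notes), so these positions locate the sequence only. Each stretch ends before the earliest start of the gene in GENCODE, which shortened that of Ccne1 to 206 bases. The E2f1 window was not printed because it lies inside the gene as GENCODE annotates it. Capitals mark a GC box (GGGCGG, the letters bound by Sp1), a CCAAT box (CCAAT, bound by NF-Y) or a CHR (TTTGAA, bound by the MuvB complex), on either strand. The marked motifs do not overlap each other.
Ccne1, chr7:38107535-38107740, minus strand: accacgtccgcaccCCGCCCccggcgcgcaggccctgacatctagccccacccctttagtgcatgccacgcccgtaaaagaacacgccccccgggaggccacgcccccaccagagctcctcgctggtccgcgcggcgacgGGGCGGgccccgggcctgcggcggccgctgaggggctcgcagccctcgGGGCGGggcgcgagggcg
E2f8, chr7:48881597-48881846, minus strand: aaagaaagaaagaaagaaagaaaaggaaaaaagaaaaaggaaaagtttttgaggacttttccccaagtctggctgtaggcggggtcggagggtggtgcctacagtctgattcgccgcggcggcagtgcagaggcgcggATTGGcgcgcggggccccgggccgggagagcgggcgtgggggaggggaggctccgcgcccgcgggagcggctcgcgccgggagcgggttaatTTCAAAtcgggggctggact
Cdkn1b, chr6:134920151-134920400, plus strand: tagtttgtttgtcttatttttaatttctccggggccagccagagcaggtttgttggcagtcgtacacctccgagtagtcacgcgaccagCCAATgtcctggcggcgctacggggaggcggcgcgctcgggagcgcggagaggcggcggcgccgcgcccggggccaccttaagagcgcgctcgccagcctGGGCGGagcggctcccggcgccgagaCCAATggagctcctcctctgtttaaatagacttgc

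The stretch of Ccne1 carries 3 GC boxes, and its full window holds a further GC box, for 4 in all. That of E2f8 holds a CCAAT box, and a CHR between bases -20 and -15 from the RefSeq start. That of Cdkn1b holds 1 GC box and 2 CCAAT boxes. An E2F motif spelled TTTNNCGC was found in 0 of the 8 windows, and in 4.28% of all 32851 windows of the same length. GC boxes were found in 6 of the 8 windows and in 32.7% of all, CCAAT boxes in 3 and 33.8%, and the CHR in 1 and 16.0%. The 8 windows held 54% to 77.6% G or C, above the median of 52.4% of all windows. The comparison was not matched for this, and GGGCGG is made of these letters alone. A match is a string of letters and no shown binding site, and other spellings or sites farther from the start were not searched.

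Ccnd1 encodes cyclin D1, a target of Wnt and growth factor signals in the gut. It was at 11.07, 12.23 and 8.65 FPKM in BBR mice 1, 2 and 3, and at 34.85, 41.34 and 41.73 FPKM in SASP mice 1, 2 and 3. The lowest SASP value was far above the highest BBR value. The means were 10.7 ± 1.83 and 39.3 ± 3.86 FPKM (SD, n = 3 each), a ratio of 3.69 (SASP over BBR). The log2 fold change was -1.80 (SE 0.15, limma adjusted p = 0.00245), which ranked 29 among all tested genes by p-value. Ccnd1 was called in 13 of 14 alternatives, each left-out mouse included, and missed the threshold with the smooth muscle covariate at nearly the same size (-1.78, adjusted p = 0.0660).

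Ccnd2 encodes cyclin D2, which is prominent in lymphoid and mesenchymal cells. Its values were 21.53, 22.59 and 37.26 FPKM with BBR, against 27.61, 54.14 and 57.52 FPKM with SASP. The groups overlapped, since BBR mouse 3 was above SASP mouse 1. The log2 fold change was -0.73, with a 95% interval of -1.49 to 0.03 (adjusted p = 0.171 in limma). These 2 mice also held the most and the least smooth muscle RNA of the series, and any part of this in Ccnd2 was not tested. With the smooth muscle covariate the change was -1.63 (adjusted p = 0.0429), in a fit that called 19 of all tested genes. The muscle score was higher in each BBR mouse than in any SASP mouse, so that fit cannot tell muscle apart from the drug. Array weights, which gave BBR mouse 3 the lowest weight of 0.129, also made Ccnd2 a call (-1.23, adjusted p = 0.00105). With these weights 7126 of the 12072 tested genes were called.

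Ccnd3 encodes cyclin D3. Its values were 26.59, 34.17 and 34.24 FPKM with BBR, against 29.54, 25.65 and 30.72 FPKM with SASP, which overlapped. The change was 0.14 on the log2 scale, and its 95% interval of -0.18 to 0.45 leaves out a value as low as that of Ccnd1. It was called in 0 of 14 alternatives, and its sign turned with array weights (-0.12). Bysl, on the opposite strand across the end of Ccnd3, was lower in each BBR mouse than in any SASP mouse but was not called (-0.49, limma adjusted p = 0.0822), and reads of the shared stretch cannot be told apart.

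The summed FPKM of the D cyclins was 59.2, 69.0 and 80.2 in BBR and 92.0, 121 and 130 in SASP mice, so the sums did not overlap. Ccnd1 made up 18.7%, 17.7% and 10.8% of that sum in BBR and 37.9%, 34.1% and 32.1% in SASP mice. Ccnd3 made up 45.7% ± 3.47 in BBR and 25.6% ± 5.74 in SASP mice (SD, n = 3 each). The share of Ccnd2 was close, at 38.5% ± 7.12 and 39.7% ± 8.35. An exact permutation test (two-sided) gave p = 0.1 for the shares of Ccnd1 and Ccnd3, and p = 1 for that of Ccnd2. With 3 against 3 mice 0.1 is the smallest possible p, so this test could not pass the threshold and decides nothing here. The 3 shares are parts of one sum in each mouse, so they are not separate results. Ccnd3 itself was not called (log2 fold change 0.14), and its larger share in BBR mice came with the lower sum. With the share of Ccne1 among E cyclins 4 shares were tested, and the smallest adjusted value was 0.133.

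**Figure D2:**
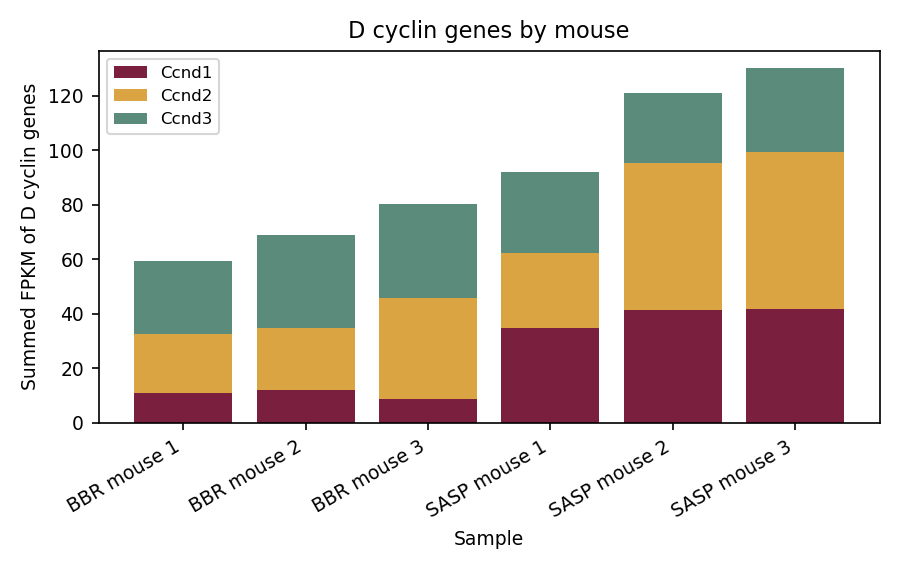
Summed FPKM of the 3 D cyclin genes in each mouse, stacked by gene from 0. The Ccnd1 part is between 8.65 and 12.23 FPKM in BBR and between 34.85 and 41.73 FPKM in SASP mice, while the Ccnd3 part stays between 25.65 and 34.24 FPKM in all 6 mice.

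The E cyclins were lower under BBR than under SASP. Ccne1 was at 0.75, 1.19 and 0.98 FPKM with BBR, against 3.77, 4.79 and 4.25 FPKM with SASP. Its means were 0.973 ± 0.220 and 4.27 ± 0.510 FPKM (SD, n = 3 each), a ratio of 4.39 and the widest of the 10 genes. On the log2 scale this was -1.42 (SE 0.15, limma adjusted p = 0.00644), a size held down by the pseudocount of 1, and with a pseudocount of 0.1 it was -2.04.

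Ccne2 was at 1.2, 1.66 and 1.11 FPKM with BBR, against 3.52, 4.26 and 4.26 FPKM with SASP. Its log2 fold change was -1.11 (SE 0.15, limma adjusted p = 0.0132), and -1.55 with the lower pseudocount. Ccne1 was called in 11 and Ccne2 in 9 of 13 alternatives. Ccne1 missed the threshold without SASP mouse 3 (adjusted p = 0.0530) and with the smooth muscle covariate (0.0785). Ccne2 missed it without BBR mouse 1 (0.0591), SASP mouse 1 (0.0557) or SASP mouse 3 (0.0800) and with the covariate (0.145). Over all 13 alternatives its log2 fold change stayed between -1.55 and -1.05.

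Ccne1 held 42.4% ± 4.25 of the E cyclin FPKM in BBR and 51.5% ± 1.5 in SASP mice. Its exact permutation p was 0.1, the smallest possible, so that test could not decide whether the share differed. Ints8, the gene on the opposite strand that overlaps the end of Ccne2, did not pass the test (log2 fold change -0.03, limma adjusted p = 0.896). By a rough depth estimate, Ccne1 rested on 25 to 174 reads and Ccne2 on 56 to 233 reads per mouse.

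The E2F genes were also lower in each BBR mouse than in any SASP mouse. E2f8 encodes an atypical E2F that represses E2F targets late in the cycle and is itself switched on by E2F. It was at 1.98, 2.74 and 0.60 FPKM with BBR, against 6.44, 6.41 and 5.48 FPKM with SASP. The log2 fold change was -1.44 (SE 0.30, limma adjusted p = 0.0371), and the BBR values spread widely, with mouse 3 lowest.

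The call of E2f8 was the least steady of the 4. It was called in 6 of 13 alternatives, and was lost without any mouse other than BBR mouse 2 or 3, with log2 fold changes of -1.54 to -1.41 and adjusted p-values up to 0.146. It was also lost with a pseudocount of 0.1 (-1.95, adjusted p = 0.0577), with no filter (-1.44, 0.0668) and with the smooth muscle covariate, where the change was -0.95 (0.304).

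E2f1 encodes an activating E2F that drives genes of DNA synthesis. It was at 0.94, 1.62 and 0.49 FPKM with BBR, against 2.10, 3.24 and 3.26 FPKM with SASP. The groups did not overlap, but the log2 fold change of -0.96 (SE 0.24) just missed the threshold (limma adjusted p = 0.0551). It passed with quantile normalization (0.0144), median-ratio scaling (0.0244), array weights (0.000446) and without BBR mouse 3 (0.0388). These fits called 1737, 1683, 7126 and 4018 of all tested genes, in that order, beside 1069 in the reported fit. In the reported fit the 95% interval of E2f1 was -1.54 to -0.39. E2f1 rested on about 23 to 162 reads per mouse, and 23 was the lowest estimate for any of the 10 genes.

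The inhibitors showed no difference that passed the test. Cdkn1a, which encodes p21 and is switched on by p53, was the most abundant of the 10 genes. It was at 180.57, 233.72 and 124.92 FPKM with BBR, against 270.15, 152.87 and 210.95 FPKM with SASP. The groups overlapped over most of their range. On the log2 scale the change was -0.24, with a 95% interval of -0.90 to 0.42 (limma adjusted p = 0.578), and it turned to 0.46 with the smooth muscle covariate.

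Cdkn1b, which encodes p27, was at 38.04, 49.79 and 18.84 FPKM with BBR, against 39.24, 30.18 and 29.22 FPKM with SASP. BBR mice held both its highest and its lowest value. Its log2 fold change was 0.02, with a 95% interval of -0.77 to 0.80 (limma adjusted p = 0.976). Its sign was not stable and was negative with median-ratio scaling (-0.11). Array weights, with which 7126 of the 12072 tested genes were called, made it a call as higher (0.34, adjusted p = 0.0487).

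Cdkn1c, which encodes p57 and is expressed from the maternal allele, was at 2.59, 4.17 and 1.98 FPKM with BBR, against 2.97, 4.02 and 4.42 FPKM with SASP. The groups overlapped. The log2 fold change was -0.32, with a 95% interval of -0.87 to 0.23 (limma adjusted p = 0.366). It was a call as lower with array weights (-0.49, adjusted p = 0.0135), which called 7126 of all tested genes. The intervals of all 3 inhibitors leave out a log2 fold change as low as that of Ccnd1 or Ccne1. They do not leave out changes of up to 0.77 on the log2 scale in either direction for Cdkn1b.

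**Figure D3:**
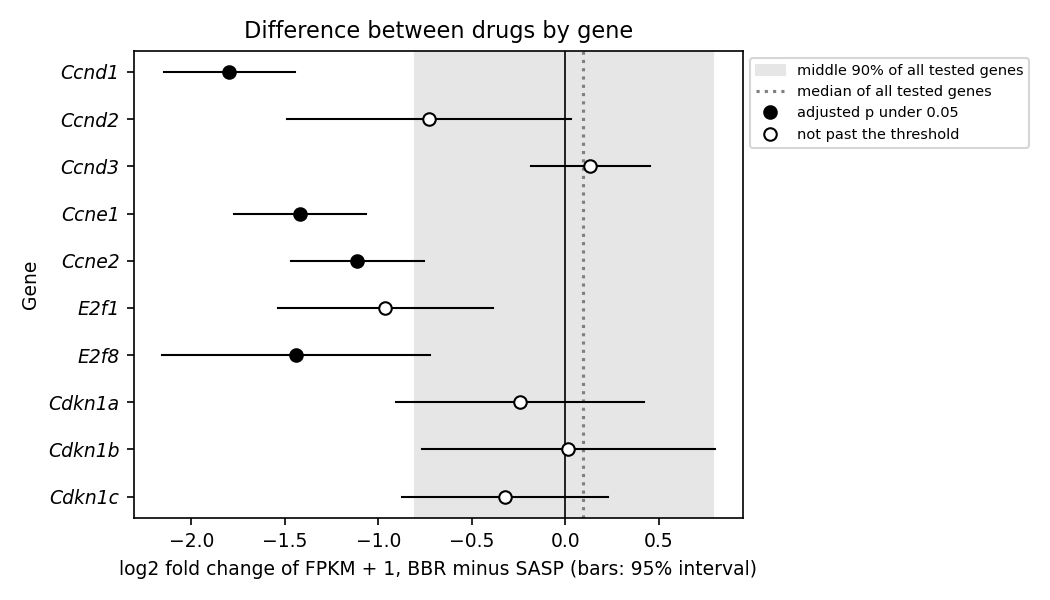
Log2 fold change of FPKM + 1 (BBR minus SASP) of each gene with its 95% limma interval, filled where the adjusted p is under 0.05. Grey marks the 5th to 95th percentile of all 12072 tested genes (-0.80 to 0.79), and Ccnd1, Ccne1, Ccne2, E2f8 and E2f1 lie to its left.

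FPKM are scaled by transcript length, so levels can be set side by side between genes. In SASP mice Cdkn1a was highest (152.87 to 270.15 FPKM), followed by Ccnd2, Ccnd1, Cdkn1b and Ccnd3, whose neighbours in this order overlapped, from 25.65 to 57.52 FPKM. E2f8 came next (5.48 to 6.44 FPKM) and lay above Ccne1, Ccne2 and Cdkn1c, which overlapped each other, and E2f1 was last. In BBR mice Cdkn1a was again highest, and Cdkn1b, Ccnd3 and Ccnd2 overlapped between 18.84 and 49.79 FPKM. Ccnd1 stood apart below them in BBR mice (8.65 to 12.23 FPKM), whereas in SASP mice it overlapped Cdkn1b and Ccnd2 and lay above Ccnd3. Cdkn1c (1.98 to 4.17 FPKM) exceeded both E cyclins in every BBR mouse, while E2f8, Ccne2, E2f1 and Ccne1 followed with overlapping values.

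**Figure D4:**
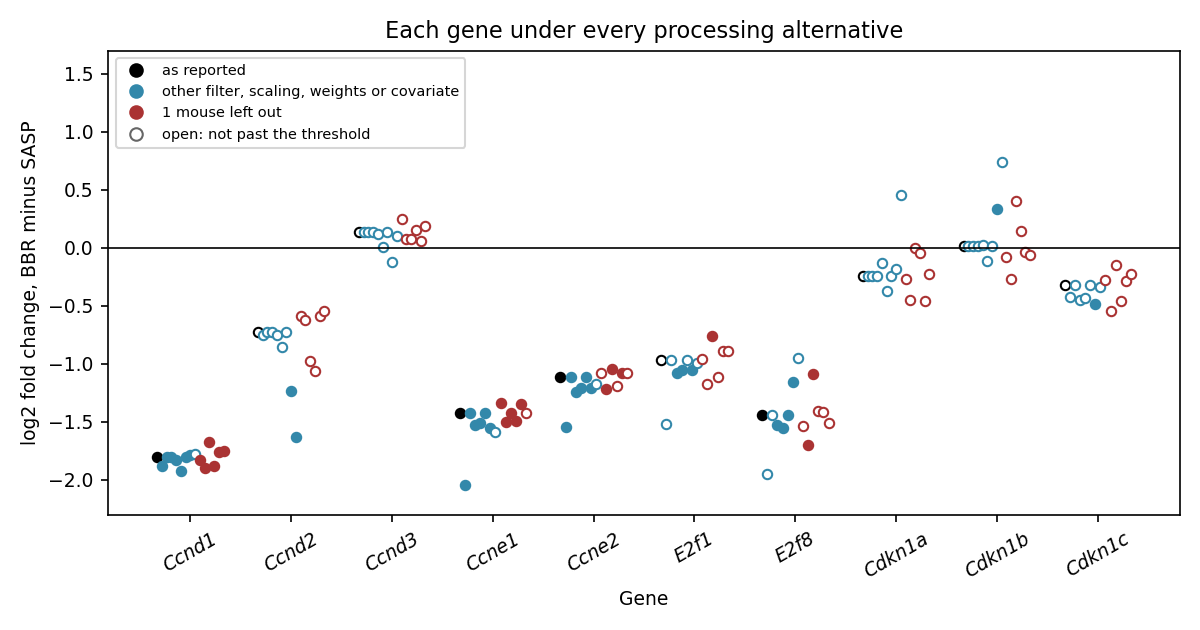
Log2 fold change of each gene (BBR minus SASP) as reported (black), with another filter, scaling, weighting or covariate (blue) and with 1 mouse left out (red), filled where the adjusted p is under 0.05. Ccnd1, Ccnd2, the E cyclins, the E2F genes and Cdkn1c keep their sign in every fit, while Ccnd3, Cdkn1a and Cdkn1b cross 0.

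Markers of the tissue were read from the same libraries. Epithelial markers summed to 3918 to 4364 FPKM over 7 genes in BBR and 4216 to 5125 FPKM in SASP mice, and the most abundant genes dominate this sum. Of these 7 genes, 5 were higher and 2 lower, and 1 was called higher and 1 lower. For this and the marker counts below, 7337 of the 12072 tested genes were higher, and 3.82% were called higher and 5.04% lower. All BBR values lay below all SASP values in 2 of the 7 genes and above them in 1, where 2007 and 2568 of the 12072 tested genes did so. Smooth muscle markers summed to 2773 to 6579 FPKM over 8 genes in BBR and 702 to 2211 FPKM in SASP mice, with 8 of 8 higher and 0 called. Stromal markers summed to 226 to 308 and 102 to 179 FPKM over 6 genes, with 4 called higher. Endothelial markers summed to 12.8 to 24.2 and 6.57 to 9.05 FPKM over 4 genes, with 1 called higher. Leukocyte markers summed to 65.3 to 104 and 111 to 125 FPKM over 6 genes, with 3 tested and 0 called. Most of each leukocyte sum came from a single gene. Of the 3 tested, 2 were lower and 1 was higher, and the groups overlapped in 2. Markers of enteric glia and neurons summed to 11.3 to 34.5 and 6.86 to 16.1 FPKM over 5 genes, with 3 tested and 0 called. The part of these differences in the cyclin and E2F values was not tested. The covariate fit above cannot tell it apart from the drug. Its smooth muscle score was higher in each BBR mouse (7.57, 7.74 and 8.70) than in any SASP mouse (5.74, 7.30 and 6.95).

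Among all tested genes, 1069 were called (8.86%), of which 43.1% were higher under BBR, or 29.6% of 1683 calls with median-ratio scaling. That scaling moved the median of all tested genes by -0.12 on the log2 scale.

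The partners of the cyclins were mostly not called. Of 8 kinases and activators, 1 was called as lower and 0 as higher, with a median log2 fold change of -0.28 beside 0.10 for all tested genes. The called gene was Cks1b, a small subunit of cyclin-dependent kinases that also serves the destruction of p27 (-1.25, limma adjusted p = 0.0261). Cdk4, named after its values were seen as the kinase of the D cyclins, was at 30.43, 36.37 and 14.78 FPKM with BBR, against 47.31, 43.22 and 41.66 FPKM with SASP. Its groups did not overlap, but BBR mouse 3 was far below the other BBR mice, and it was not called (-0.77, adjusted p = 0.137).

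Of 8 pocket protein and MuvB genes, which repress E2F targets in resting cells, 1 was called as lower and 0 as higher, with a median of -0.15. It was Lin9, a MuvB subunit that also takes part in activating late cell cycle genes (-0.69, limma adjusted p = 0.0435). Of the 8 other E2F and DP genes 7 were tested, with a median of -0.10 and 1 called. This was Tfdp1, the dimer partner of the E2F factors, which was at 18.07, 20.24 and 18.12 FPKM with BBR, against 37.21, 36.31 and 37.72 FPKM with SASP (-0.94, SE 0.09, limma adjusted p = 0.00546). The replicates of Tfdp1 were close in both groups. E2f7, the closest relative of E2f8 and named for that after its values were seen, fell below the filter. It was at 0.37, 0.32 and 0.09 FPKM with BBR, against 0.87, 1.01 and 0.64 FPKM with SASP, which did not overlap and were not tested.

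INK4 inhibitors, which act on Cdk4 and Cdk6 alone, had 3 of 4 genes tested and 0 called, with a median of -0.07. The smallest p belonged to Cdkn2c (-0.71, limma adjusted p = 0.0968). Of 8 genes for the turnover of cyclins and inhibitors 0 were called, with a median of 0.14. Skp2, which marks p27 for destruction, had the smallest p (-0.68, adjusted p = 0.0783). Without BBR mouse 3 the calls became 2 of the kinases, 3 of the pocket and MuvB genes, 3 of the E2F and DP genes, 1 of the INK4 inhibitors and 3 of the turnover genes. The call among the kinases and that among the pocket and MuvB genes became 0 without any other mouse, and that among the E2F and DP genes became 0 without SASP mouse 3. In the order given, array weights called 6, 5, 6, 2 and 4 genes of these 5 lists, and the smooth muscle covariate called 0 of each. Among all tested genes, 4018 were called without BBR mouse 3, 7126 with array weights and 19 with the covariate.

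E2F target genes of S phase were lower in 22 of 22 tested genes, with a median of -1.32, where 4735 of the 12072 tested genes were lower. Of the 22 genes 14 were called as lower, where 5.04% of tested genes were. Among the 14 was Cdc6, a replication licensing factor named here after its values were seen, which reached 1 FPKM in the 3 SASP mice alone and so passed the filter only through the group where it was higher. Gins1, of the replicative helicase (-1.36, limma adjusted p = 0.00529), Rrm2, a subunit of the enzyme that makes deoxyribonucleotides (-2.12, 0.00964), and Pcna, the sliding clamp (-1.07, 0.0111), had the smallest p-values. The list overlaps replication genes already known to be lower in these samples, so its count is no independent evidence. The 14 calls became 0 without SASP mouse 3, 1 without SASP mouse 1, 2 without BBR mouse 1, 5 without SASP mouse 2, 6 with no filter and 0 with the smooth muscle covariate. They became 19 without BBR mouse 3, 20 with quantile normalization or median-ratio scaling, and 22 with array weights. The calls among all tested genes moved the same way in these fits, to 51 without SASP mouse 3 and to 7126 with array weights. The median of the list stayed between -1.52 and -1.05 when single mice were left out, and was -1.06 with the covariate.

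Proliferation markers were lower in 8 of 8 genes, with a median of -1.13, where 4735 of the 12072 tested genes were lower. Of the 8 genes 4 were called as lower, where 5.04% of tested genes were. Among the 4 were Top2a (-1.84, limma adjusted p = 0.0353), Cdk1 (-1.30, 0.0419) and Aurka (-1.16, 0.0444). These 4 calls became 0 in 5 of the 6 fits that left out a mouse, and 5 without BBR mouse 3. They also became 0 with no filter and with the smooth muscle covariate, and 5 with quantile normalization or median-ratio scaling. From 1069, the calls among all tested genes fell to between 51 and 405 in the 5 fits without a mouse that lost the calls. They fell to 591 with no filter and 19 with the covariate. In the 5 fits without a mouse that lost the calls the median of the list lay between -1.33 and -0.94, and it was -1.13 with no filter and -0.58 with the covariate.

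Targets of p53, listed because Cdkn1a is among its best known targets, did not all move one way. Of 18 genes 14 were higher and 4 lower, with a median of 0.19, where 7337 of the 12072 tested genes were higher. The calls were 3 higher and 2 lower, where 3.82% of tested genes were called higher and 5.04% lower. Gdf15, a stress-induced cytokine, was higher under BBR than under SASP (1.37, limma adjusted p = 0.0185), as was Plk2, a kinase of centriole duplication (0.99, 0.0295). Fas, a death receptor, was lower (-1.38, 0.00891). The 5 calls became 11 without BBR mouse 3, 12 with array weights, 0 without SASP mouse 1 or 3 and 0 with the smooth muscle covariate. Among all tested genes, 4018 were called without BBR mouse 3 and 7126 with array weights. The same counts were 59 without SASP mouse 1, 51 without SASP mouse 3 and 19 with the covariate.

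**Figure D5:**
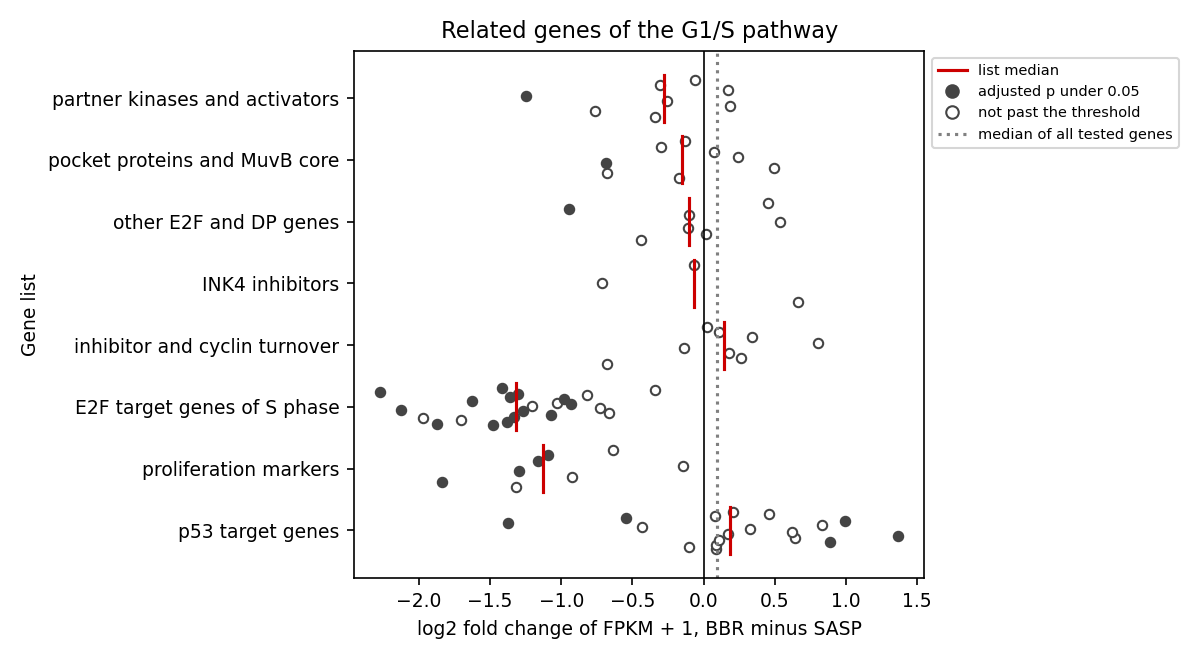
Log2 fold change (BBR minus SASP) of each tested gene in 8 lists of related genes, filled where the adjusted p is under 0.05, with red lines for list medians and a dotted line for the median of all tested genes. E2F targets (-1.32) and proliferation markers (-1.13) have the lowest medians, and the other lists lie between -0.28 and 0.19.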

How the data were processed

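Gene expression was read from a table of FPKM values, deposited by the authors for each gene and each of the 6 samples, to 2 decimals. Per the labels and the study's methods, clean reads were aligned with Bowtie2 2.2.5 and FPKM were calculated with RSEM 1.2.12; the submitters' processing notes name mm9, and the annotation is not given in the sources used here. The methods describe ribosomal RNA depletion and nanoball sequencing of rectal tissue, in a passage that does not name SASP samples, whereas the labels name an Illumina kit and colorectal tissue, and strand is not stated, so reads of genes overlapping on opposite strands cannot be separated. Groups came from the treatment labels, and replicate numbers follow accession order and pair no mice.

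FPKM are not counts, so log2(FPKM + 1) was analysed with limma 3.58.1 (R 4.3.3), as a linear model with moderated variances that followed the mean level. The 12072 genes with at least 1 FPKM in at least 3 samples were tested, two-sided, with Benjamini-Hochberg adjustment over all of them and a threshold of 0.05. Fold changes on this scale understate those of low genes. An exact test of 3 against 3 mice cannot go below p = 0.1. The labels do not say whether the mice shared cages, so p-values measure the spread between these samples.

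The 10 genes, the lists of related genes and the markers were chosen with earlier results of these data known. Named from each list were up to 3 called genes with the smallest p-values, or else the gene with the smallest p. Alternatives were a pseudocount of 0.1, no filter, a mean of at least 5 FPKM, quantile normalization, median-ratio scaling, no variance trend, array weights, a smooth muscle score as covariate, each mouse left out, and an unadjusted p of at most 0.05. The model was tried on simulated data with independent noise of the same spread in every sample. That simulation holds no mouse that stands apart as BBR mouse 3 does, so it does not cover this feature. Read depth was estimated at 16400000 to 18200000 reads per sample from the 31 to 56 genes seen in a single sample with a transcript under 1500 bases, taking each such value as 1 read; approximate read numbers use the longest GENCODE M21 transcript and are rough. The identical values shared by any 2 samples made up at most 0.389% of tested genes. Promoter windows came from RefSeq (GRCm38.p6). The values of 1 marker gene are not reported here.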

Additional observations from a re-analysis of the deposited data

How the results depend on the processing

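The 1069 called genes became 591 with no filter, 1737 with quantile normalization, 1683 with median-ratio scaling, 7126 with array weights (65.1% higher) and 19 with the smooth muscle covariate, and 3837 passed at an unadjusted p of at most 0.05. When single mice were left out the count ranged from 51 to 4018. Of the 10 cell cycle genes 4 were called, which became 8 with array weights (7 lower, 1 higher), 1 with a mean of at least 5 FPKM and 1 with the muscle covariate. The filter on the mean left 5 of the 10 genes to test. The count ranged from 1 without SASP mouse 3 to 5 without BBR mouse 3, with 0 called higher in any of these 6 fits. Of 135 fits of single cell cycle genes under the alternatives, 106 kept direction and side of the threshold, 14 lost a call, 8 gained a call and 7 turned in sign. Those that turned were Ccnd3 with array weights (-0.12), Cdkn1a with the smooth muscle covariate (0.46) and Cdkn1b with median-ratio scaling (-0.11) and in 4 fits that left out a mouse (-0.27 to -0.04). Over all 6 such fits Cdkn1b ranged from -0.27 to 0.41. None of these 3 genes was called in the reported fit, and the cause was not tested. The covariate fit has fewer degrees of freedom, and its score was higher in each BBR mouse than in any SASP mouse. The fits without a mouse have fewer samples. No paired analysis was possible because the labels give no replicate numbers that the groups share. The low levels of E2f1, Ccne1, Ccne2, E2f8 and Cdkn1c limit the precision of their values.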
